A study of Homo sapiens with 8 samples.

Results

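Transcription factors of the FOX, SOX, PAX and TBX families and of the LHX, NKX, IRX and DLX homeobox families and the homeobox family of SIX3 were followed across 8 arrays of 2 human T cell lines. They were taken as every transcript probe set whose annotated symbol carries one of these family names with a plain number, FOXP3 excepted, which gave 117 probe sets for 117 genes among 21448 transcript probe sets. The study treated MT-1, an adult T cell leukaemia line, and MT-2, T cells that carry the leukaemia virus HTLV-1. MT-1 cells received 500 nM OR21 with 2500 nM EPZ-6438, 2500 nM EPZ-6438 alone, 500 nM OR21 alone, or no compound. MT-2 cells received 100 nM OR21 with 500 nM EPZ-6438, 500 nM EPZ-6438 alone, 100 nM OR21 alone, or no compound. OR21 is a DNA demethylating agent, and EPZ-6438 (tazemetostat) inhibits EZH2, the enzyme of Polycomb repressive complex PRC2 that methylates histone H3 at lysine 27. Cells were exposed for 96 h, with each compound added at seeding and again at 48 h, and the study's question was what the agents did together. Each line and treatment had 1 array, so no difference within a line has a replicate error, and doses differed between the lines.

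These families direct the formation of tissues in the embryo. Outside the cells that need them, many of their genes are kept silent by PRC2, by DNA methylation, or by both, and their start sites are often rich in CpG dinucleotides, the sites of DNA methylation. Several members have a place in mature or developing T cells, among them FOXO1 and FOXP1, which hold naive T cells at rest, SOX4 and SOX13, which act in thymic development, and TBX21 (T-bet), which drives the type 1 helper fate.

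Of the 117 factors, 33 stood above background on at least 1 array and 84 on none. Each array's background was set at the 95th percentile of its negative controls, and it came to 7.19 to 7.80 on the log2 scale of the deposited signal. On bulk arrays, fewer cells with a transcript and less transcript per cell cannot be told apart. The share of factors above background ran from 15.4% to 21.4% per array, against 37.9% to 45.3% of all transcript probe sets. In MT-1 the number above background was 25 with both agents, 23 with EPZ-6438 and 22 with OR21, against 18 in untreated cells. In MT-2 it was 22 with both agents, 24 with EPZ-6438 and 25 with OR21, against 22 in untreated cells. The background level moved as well. It was 7.19 in MT-1 with both agents and 7.46 in untreated MT-1. The order of these counts depended on where background was set. At the 99th percentile MT-1 had 12 with both agents, 7 with EPZ-6438 and 7 with OR21, against 10 untreated, so the single agents came below untreated cells. At the 90th percentile EPZ-6438 and untreated MT-1 both had 26.

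**Figure D1:**
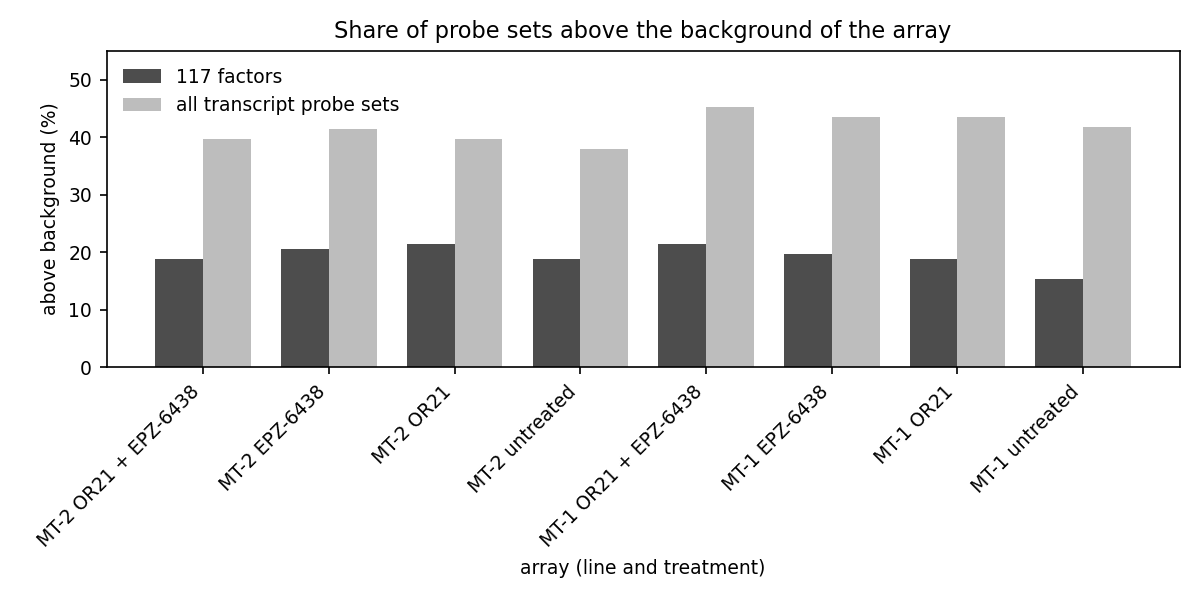
Bars give the percentage of probe sets above the background of their array (y axis) for each line and treatment (x axis), dark for the 117 factors and light for all 21448 transcript probe sets, with 1 array per bar. The factors lie between 15.4% and 21.4% and all probe sets between 37.9% and 45.3%.

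By family, 12 of 40 FOX genes, 6 of 18 SOX genes, 5 of 13 TBX genes, 4 of 13 NKX genes, 2 of 8 PAX genes, 2 of 6 DLX genes, 1 of 8 LHX genes, 1 of 5 genes of the SIX3 family and 0 of 6 IRX genes were above background somewhere. The 84 that were never above it had highest levels between 4.05 and 7.50, with a median of 5.40. Factors above background on all 8 arrays numbered 10, or 8.55%, where 32.3% of all transcript probe sets were. They were FOXJ2, FOXJ3, FOXK1, FOXK2, FOXM1, FOXN2, FOXO3, NKX1-1, SOX4 and SOX13, so 7 of the 10 were FOX genes. FOXM1, which drives the genes of mitosis, stayed between 11.74 and 12.73 on all arrays. FOXK2, a repressor that acts in metabolism and autophagy, lay between 11.23 and 13.22. FOXO3, a factor of stress resistance and quiescence that has a near-identical pseudogene copy and is therefore uncertain as to the single gene, lay between 9.53 and 10.58.

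**Figure D2:**
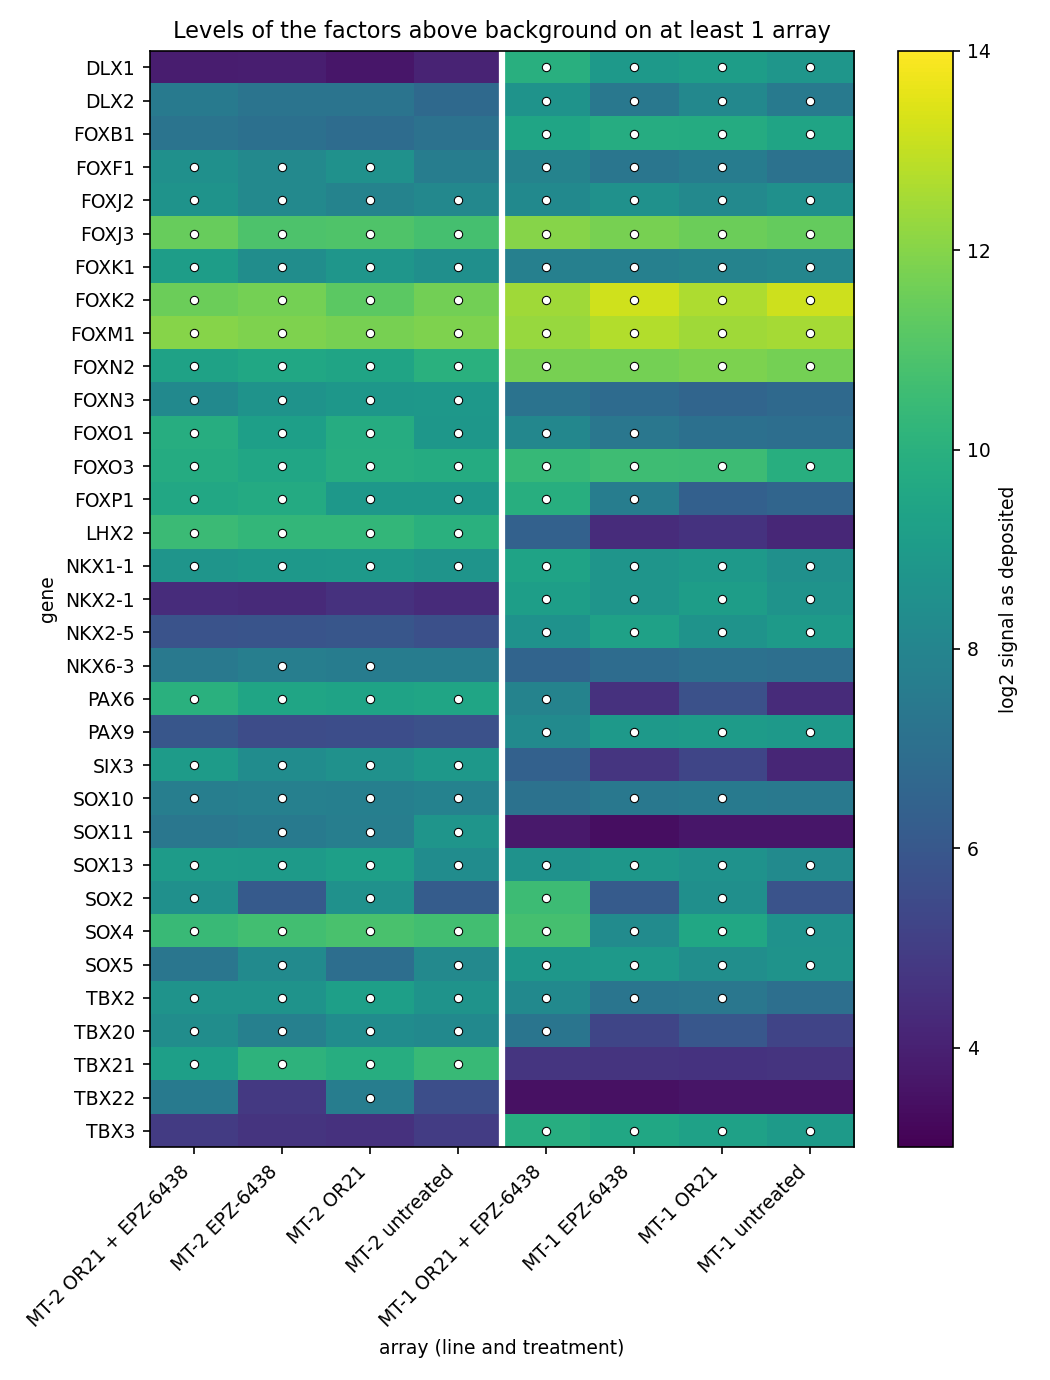
The colour of each cell gives the log2 signal as deposited for the 33 factors above background on at least 1 array (rows, by family) on each of the 8 arrays (columns), and a white dot marks a level above the background of that array. The genes DLX1, NKX2-1 and TBX3 carry dots on MT-1 arrays only and TBX21, LHX2 and SIX3 on MT-2 arrays only, while SOX2 carries dots on the 4 arrays with OR21. Colours are not to be compared between genes.

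Some factors were above background in a single line whatever the treatment, as were some of all transcript probe sets. Factors above background on all 4 MT-2 arrays and on no MT-1 array were TBX21, LHX2, SIX3 and FOXN3. Factors above background on all 4 MT-1 arrays and on no MT-2 array were DLX1, DLX2, FOXB1, NKX2-1, NKX2-5, PAX9 and TBX3. These 11 were named after their values were seen. They make up 3.42% and 5.98% of the factors, and 1.87% and 3.69% of all transcript probe sets had the same patterns. DLX2 was parted by the background of each array and not by its levels, which overlapped at 6.77 to 7.48 in MT-2 and 7.39 to 8.66 in MT-1. A further 3, SOX11, NKX6-3 and TBX22, were above background on some MT-2 arrays and on no MT-1 array.

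TBX21 had 9.22 with both agents, 10.12 with EPZ-6438, 9.87 with OR21 and 10.40 untreated in MT-2, and between 4.60 and 4.70 on the MT-1 arrays. LHX2, which patterns the forebrain and keeps hair follicle stem cells, had 10.51, 10.28, 10.27 and 9.98 in MT-2 in the same order, and 6.40, 4.39, 4.60 and 4.21 in MT-1. SIX3, a factor of the forebrain and eye, had 9.03, 8.35, 8.55 and 8.88 in MT-2, and 6.43, 4.70, 5.30 and 4.17 in MT-1. The MT-1 arrays lay below the MT-2 arrays throughout for these 3 genes, and below background. PAX6, which directs eye formation, had 9.99, 9.45, 9.37 and 9.45 in MT-2, and 7.92, 4.58, 5.74 and 4.35 in MT-1, where only the array with both agents passed background.

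The MT-1 set of 7 held 4 factors known from lung, heart, pharynx and limb. It also held FOXB1, and DLX1 and DLX2, which act in forebrain interneurons. NKX2-1, the lung and thyroid factor, lay between 4.33 and 4.58 in MT-2 and between 8.64 and 9.17 in MT-1. PAX9, a factor of the pharyngeal pouches and teeth, lay between 5.54 and 5.95 in MT-2 and between 8.28 and 9.03 in MT-1. NKX2-5, the cardiac homeobox factor, lay between 5.68 and 5.93 in MT-2 and between 8.59 and 9.28 in MT-1, and TBX3, a T-box repressor of limb and heart, between 4.58 and 4.96 in MT-2 and between 8.98 and 9.86 in MT-1. Ranges of the lines did not overlap for any of these 4 genes.

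Some of the members lie side by side in the genome (gene order from RefSeq, GRCh38.p14), and neighbours were not always in the same state. NKX2-1, NKX2-8 and PAX9 follow one another on chromosome 14 with no coding gene between them. NKX2-8, the middle one, stayed between 4.69 and 5.66 on all 8 arrays and below background, while both flanking genes were above it in MT-1. On chromosome 12 TBX3 is next to TBX5, which directs heart and forelimb formation and had 4.65 to 5.24, also below background on all arrays. DLX1 and DLX2, a pair on chromosome 2 that acts in forebrain interneurons, were both above background in MT-1 only.

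**Figure D3:**
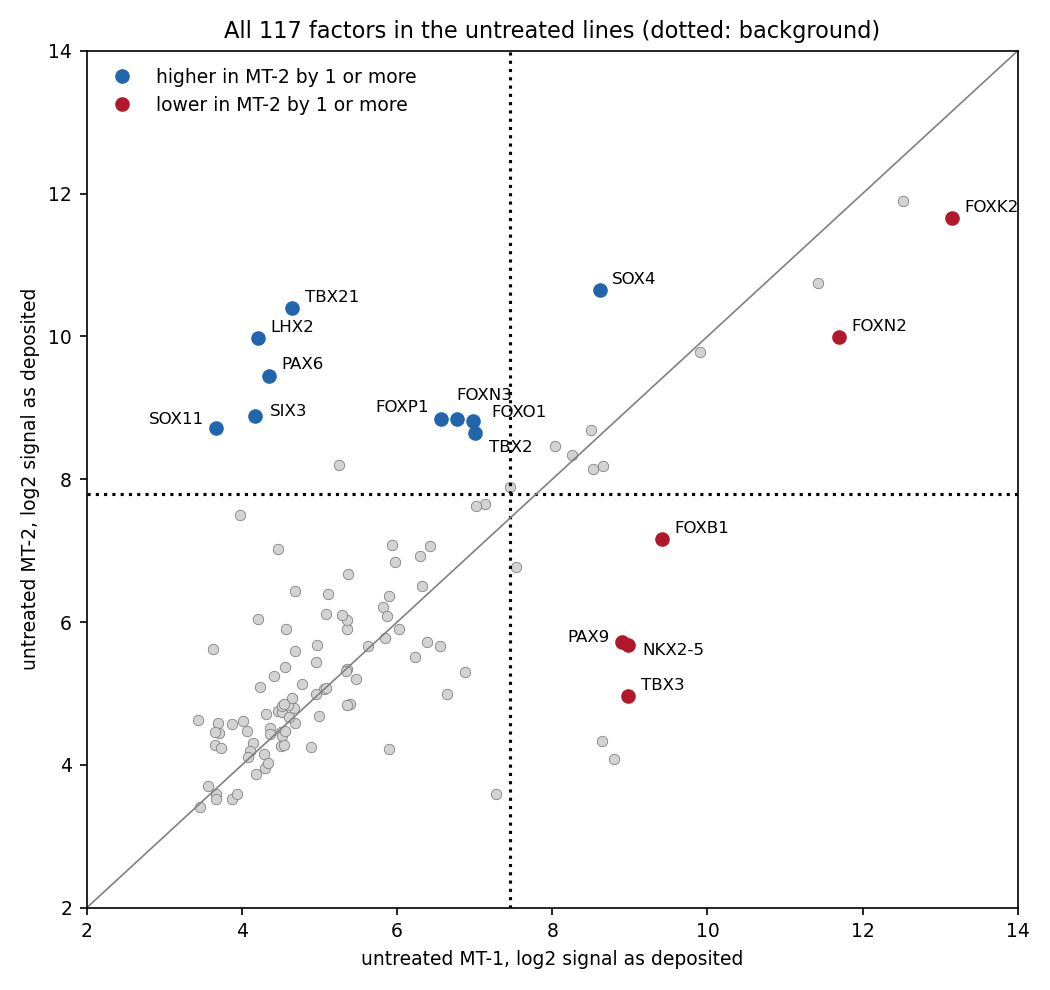
Each point is 1 of the 117 factors, with its log2 signal in untreated MT-1 (x axis) and untreated MT-2 (y axis), dotted lines at the background of each array and a solid line of equality. The 10 factors higher in MT-2 by 1 or more are blue and the 6 lower are red, and most of the others sit in the corner below both backgrounds.

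In untreated cells, 10 factors were higher in MT-2 than in MT-1 by 1 log2 unit or more (5.48% of all transcript probe sets were, against 8.55% of the factors) and 6 were lower (11.7% of all, against 5.13% of the factors). Where the lower of the paired levels was under background, the background level of that array took its place, and the text then says "at least", or "or lower" for a negative one. Higher in MT-2 were TBX21 (at least 2.94), LHX2 (at least 2.53), SOX4 (2.05), PAX6 (at least 1.99), SIX3 (at least 1.42), FOXN3 (at least 1.40), FOXP1 (at least 1.39), FOXO1 (at least 1.36), SOX11 (at least 1.27) and TBX2 (at least 1.19). Lower in MT-2 were FOXN2 (-1.71), FOXB1 (-1.61 or lower), FOXK2 (-1.49), TBX3 (-1.18 or lower), NKX2-5 (-1.17 or lower) and PAX9 (-1.09 or lower). NKX2-1 was not counted, since its level in untreated MT-1 stood little above the background of untreated MT-2 (-0.83 or lower).

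Over all treatments the difference between the lines was tested with limma, which fitted line and treatment to the 8 arrays. Here 4 arrays of different treatments stand for each line. Without a filter on low values the share with an adjusted p under 0.05 was 53.0% of the 117 factors and 52.0% of all probe sets. With the filter 51 factors were tested and 41 had such a p, 24 higher and 17 lower in MT-2, where 63.4% of all probe sets tested did. A factor high in a single line passed that filter through that line, so these 41 are not set against the 63.4%. Among factors above background on all 8 arrays, FOXN2 differed by -2.17 (SE 0.17), FOXK2 by -1.33 (SE 0.17) and SOX4 by 1.36 (SE 0.43). These genes are among those named for a large difference between the untreated arrays. The fit includes those arrays, so no p is given for them. The SOX4 value is a mean over treatments that differed. Its MT-2 minus MT-1 difference was 2.05 untreated and -0.28 with both agents. NKX1-1 differed by -0.08 (SE 0.19, limma adjusted p = 0.716), which did not pass the threshold. Nor did FOXJ2 (-0.15, limma adjusted p = 0.499) or SOX13 (0.32, limma adjusted p = 0.118). FOXJ3 (-0.65), FOXK1 (0.81), FOXM1 (-0.62) and FOXO3 (-0.63) did pass, with limma adjusted p from 0.00659 to 0.0255. For the factors seen in a single line, chosen for that pattern, no test is given.

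SOX2, a factor of pluripotent cells and neural progenitors, was above background on the 4 arrays with OR21 and on no other. In MT-1 it had 10.56 with both agents, 6.14 with EPZ-6438, 8.47 with OR21 and 5.82 untreated. In MT-2 it had 8.51 with both agents, 6.11 with EPZ-6438, 8.57 with OR21 and 6.21 untreated. The levels with OR21 did not overlap those without it in either line. Against untreated MT-1 it was higher by at least 3.11 with both agents and by at least 1.01 with OR21, the last of which was 0.85 after centring the arrays. Against untreated MT-2 the bounds were at least 0.70 with both agents and at least 0.77 with OR21. The MT-1 array with both agents stood 2.09 above the one with OR21 alone, whereas the MT-2 pair differed by -0.06. Across the lines limma gave 3.52 (SE 0.58, adjusted p = 0.143) for both agents and 2.50 (SE 0.58, adjusted p = 0.570) for OR21 against untreated cells, neither of which passed the threshold.

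Treatment with both agents was followed by the most differences in MT-1. There, 5 factors were higher than in untreated cells by 1 or more (4.27% of the factors, against 3.83% of all transcript probe sets) and 0 were lower (against 4.82% of all). The 5 were SOX2, FOXP1, SOX4, DLX1 and DLX2. Shares here and below include probe sets under background, and a difference could be given here for only 24 factors and 9750 transcript probe sets. To count as lower, a factor had to be above background in untreated MT-1, as 18 factors were (15.4%, against 41.7% of all transcript probe sets). FOXP1, a forkhead repressor needed for the quiescence of naive T cells, had 9.89 with both agents, 7.66 with EPZ-6438, 6.38 with OR21 and 6.57 untreated in MT-1, a difference of at least 2.43 with both agents. Its level with both agents was far above those of the other MT-1 arrays and slightly above all 4 MT-2 arrays, which had 9.59, 9.71, 8.85 and 8.85 in the same order. SOX4, a factor of lymphocyte progenitors, had 10.76, 8.29, 9.54 and 8.61 in MT-1, a difference of 2.15 with both agents and of 0.94 with OR21. In MT-2 its levels of 10.47, 10.65, 10.86 and 10.65 spanned less than those of MT-1. DLX1 had 9.92, 8.94, 9.12 and 8.80 in MT-1 (1.12 with both agents), and between 3.66 and 4.09 in MT-2. DLX2 had 8.66, 7.39, 8.13 and 7.53 in MT-1 (1.13 with both agents), where its untreated level lay just above the background of 7.46, and in MT-2 it was below background on all arrays. With each array centred on its median, DLX1 and DLX2 both came to 0.89.

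**Figure D4:**
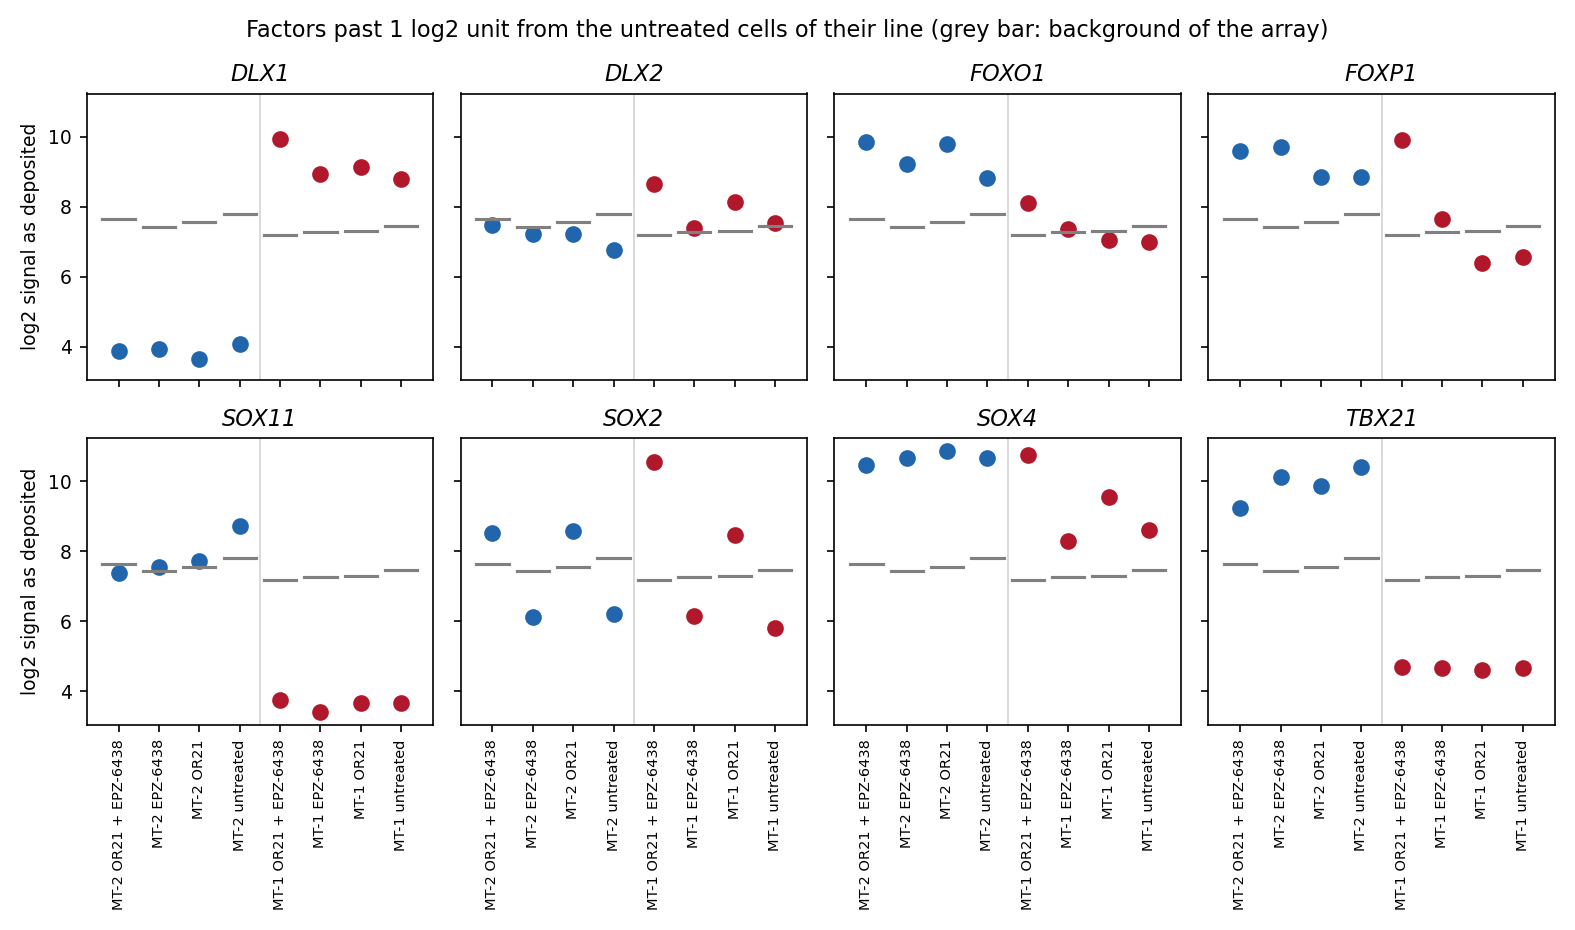
Points give the log2 signal as deposited (y axis) on each array (x axis, MT-2 in blue and MT-1 in red) for the 8 factors that differed by 1 or more from the untreated cells of their line, with 1 array per point and a grey bar at the background of that array. SOX2 is above its bar only with OR21, FOXP1 in MT-1 reaches 9.89 with both agents against 6.57 untreated, and TBX21 and SOX11 are lower on treated than on untreated MT-2 arrays.

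The promoters of these 5 genes are shown because CpG is where DNA methylation sits and OR21 is a demethylating agent, and they differ in CpG content. Each run is the 250 bases before the gene start listed by RefSeq (GRCh38.p14), 5′ to 3′ on the strand of the gene, with each CpG in capitals. Methylation was not measured on these arrays, and the starts used in these cells were not determined.
SOX2, chr3:181711675-181711924, plus strand: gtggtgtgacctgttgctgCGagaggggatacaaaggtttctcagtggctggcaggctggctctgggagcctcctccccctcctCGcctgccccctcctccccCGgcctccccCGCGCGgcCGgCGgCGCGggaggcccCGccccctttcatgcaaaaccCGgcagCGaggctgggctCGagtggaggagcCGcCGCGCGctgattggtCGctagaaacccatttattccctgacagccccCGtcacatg
FOXP1, chr3:71583729-71583978, minus strand: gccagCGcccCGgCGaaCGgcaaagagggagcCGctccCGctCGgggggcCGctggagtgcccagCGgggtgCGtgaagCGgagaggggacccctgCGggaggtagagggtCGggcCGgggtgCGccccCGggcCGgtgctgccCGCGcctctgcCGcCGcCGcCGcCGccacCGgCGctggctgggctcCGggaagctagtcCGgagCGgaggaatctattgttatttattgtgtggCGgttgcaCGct
SOX4, chr6:21593501-21593750, plus strand: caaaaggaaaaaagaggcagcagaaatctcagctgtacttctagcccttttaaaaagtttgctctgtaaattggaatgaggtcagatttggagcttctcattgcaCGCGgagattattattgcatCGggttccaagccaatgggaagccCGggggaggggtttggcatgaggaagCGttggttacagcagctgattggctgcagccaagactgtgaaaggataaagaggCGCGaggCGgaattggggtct
DLX1, chr2:172085257-172085506, plus strand: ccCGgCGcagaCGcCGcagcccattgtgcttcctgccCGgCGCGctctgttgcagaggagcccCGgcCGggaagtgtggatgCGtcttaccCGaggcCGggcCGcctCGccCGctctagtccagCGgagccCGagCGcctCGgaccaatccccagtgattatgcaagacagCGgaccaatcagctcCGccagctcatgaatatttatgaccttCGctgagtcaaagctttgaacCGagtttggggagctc
DLX2, chr2:172102901-172103150, minus strand: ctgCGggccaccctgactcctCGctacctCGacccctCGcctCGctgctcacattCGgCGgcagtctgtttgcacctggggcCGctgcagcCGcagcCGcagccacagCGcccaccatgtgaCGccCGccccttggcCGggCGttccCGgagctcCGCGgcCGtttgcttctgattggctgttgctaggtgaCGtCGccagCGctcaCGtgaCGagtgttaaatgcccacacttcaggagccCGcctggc
FOXP1 has 6 starts listed in that table, of which the one listed first is shown, and the others have 1.

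The motif CG, which reads the same on both strands, occurred 20 times before SOX2, 31 before FOXP1, 8 before SOX4, 23 before DLX1 and 25 before DLX2. Of the 27305 genes with a promoter in the table, 32.1% had at least as many CG as SOX2, 10.6% as many as FOXP1, 55.8% as many as SOX4, 25.4% as many as DLX1 and 21.3% as many as DLX2. Promoters were matched for 80 of the 117 factors by gene identifier. Their median was 22 CG, against 11 over all genes of the table, and their CG content relative to base composition had a median of 0.81, against 0.56. The 23 matched factors that were above background on at least 1 array had a median of 25 CG and the 57 that were not had 20. TBX21, which was lower with both agents in MT-2, had 17.

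In MT-1 the other arms moved few factors past 1 unit. OR21 alone was followed by 1 higher factor, SOX2 (1.27% of all transcript probe sets were higher, against 0.855% of the factors), and 0 lower (1.66% of all). EPZ-6438 alone was followed by 0 higher (0.14% of all) and 0 lower (0.0793% of all). The forkhead genes FOXO1 and FOXP1 passed background in MT-1 with EPZ-6438 but by small margins, at 7.37 and 7.66 over a background of 7.27. FOXO1, which keeps naive T cells homing and surviving, reached 8.11 with both agents in MT-1, at least 0.65 above untreated cells. TBX2, a T-box repressor close to TBX3 in sequence, reached 8.21 with both agents in MT-1, at least 0.76 above untreated cells. The median difference over all factors, levels under background included, was 0.17 with both agents, 0.07 with EPZ-6438 and 0.14 with OR21 in MT-1, beside -0.06, -0.02 and -0.02 over all transcript probe sets.

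In MT-2, where the doses were lower, 3 factors differed with any treatment, 1 higher and 2 lower. FOXO1 was higher with both agents (1.49% of all transcript probe sets were, against 0.855% of the factors). It had 9.86 with both agents, 9.21 with EPZ-6438, 9.80 with OR21 and 8.82 untreated, a difference of 1.04 with both agents, 0.39 with EPZ-6438 and 0.98 with OR21. All 3 treated arrays were above the untreated one. With arrays centred on their medians the difference with both agents was 0.98, short of the threshold. TBX21 and SOX11 were lower with both agents (0.76% of all transcript probe sets, against 1.71% of the factors). TBX21, by the levels given above, differed by -1.18 with both agents, -0.28 with EPZ-6438 and -0.53 with OR21. With background at the 99th percentile the first of these was -0.81. SOX11, a factor of neural progenitors that is also a marker of mantle cell lymphoma, had 7.37, 7.54, 7.72 and 8.72 in MT-2, so each treated array was lower than the untreated one. The differences were -1.09 or lower with both agents, -1.18 with EPZ-6438 and -1.01 with OR21. The 3 comparisons share the untreated array, so they rest on its single level of 8.72.

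SOX11 was the 1 factor lower with EPZ-6438 in MT-2 (0.0653% of all transcript probe sets were lower, 0.163% higher with 0 factors) and the 1 lower with OR21 (0.546% of all lower, 0.406% higher with 0 factors). Smaller differences in MT-2 were seen for SOX5, which acts in cartilage formation and had 7.32 with both agents and 6.97 with OR21, both below background, against 8.26 with EPZ-6438 and 8.19 untreated. TBX22, the factor of palate formation, had 7.55 with both agents, 4.84 with EPZ-6438, 7.68 with OR21 and 5.63 untreated. It passed background only with OR21, by too little for a difference to be given. FOXF1, a factor of lung and gut mesenchyme, was at least 0.70, at least 0.35 and at least 0.76 above untreated MT-2 in the order given for FOXO1, and at least 0.48 above untreated MT-1 with both agents.

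Of the 10 factors above background on all 8 arrays, SOX4 was the 1 that differed from untreated cells by 1 or more. SOX13, which acts in gamma delta T cells, had 9.02 with both agents, 8.98 with EPZ-6438, 9.23 with OR21 and 8.34 untreated in MT-2, and 8.59, 8.83, 8.59 and 8.26 in MT-1. Every treated array was above the untreated one of its line, by 0.33 to 0.89. FOXN2, a forkhead factor of the same subfamily as FOXN3, had 9.34, 9.56, 9.43 and 9.99 in MT-2, all treated arrays below the untreated one, and 11.70 to 11.85 in MT-1. FOXJ3, a forkhead activator in muscle and germ cells, had 11.43, 10.93, 10.97 and 10.75 in MT-2, and in MT-1 it stood 0.57, 0.32 and 0.08 above the untreated 11.42, so in each line it was highest with both agents and lowest untreated. TBX20, a factor of heart formation, passed background in MT-1 only with both agents, at 7.28 over 7.19, and lay between 7.77 and 8.38 in MT-2. Of the 84 factors never above background, 9 had a signal higher by 1 or more with both agents in MT-1 and 1 in MT-2, at levels where the negative controls also lie. The same count over all transcript probe sets never above background was not made, so nothing is read from these numbers.

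The study set the combination against the single agents, and the excess was what the combination changed beyond the summed changes of the single agents, on the log2 scale and with levels under background set to it. In MT-1 4 of the 117 factors had an excess of 1 or more, where 2.15% of all transcript probe sets did, and 0 had one of -1 or lower, where 0.485% of all did. The 4 were FOXP1 (2.40), SOX2 (2.28), SOX4 (1.53) and TBX2 (1.03). In MT-2 these 4 had -0.12, 0.31, -0.38 and -0.54. There 2 factors, SOX11 (1.10) and SIX3, reached 1, where 0.718% of all transcript probe sets did, and 0 had -1 or lower, where 0.168% did. Neither of these MT-2 genes was higher by 1 or more with both agents than without any, and both had lower levels with each single agent than untreated. Where several levels were under background, as for SOX2, the excess is not a bound in either direction. From the levels as deposited it was 2.43 for FOXP1, 1.77 for SOX2, 1.53 for SOX4 and 0.57 for TBX2 in MT-1. SOX4 was above background on all 4 MT-1 arrays, so its 1.53 did not depend on the background level. There was no replicate to test an excess within a line, and across lines limma called 0 factors.

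For the treatments against untreated cells over both lines, limma called 0 factors and 0% of all probe sets tested for OR21, for EPZ-6438 and for both agents. With 3 residual degrees of freedom, its error came from how unlike the lines responded. Without the filter on low values, 16 of 117 factors had an unadjusted p under 0.05 with both agents (13.7%, against 15.8% of all probe sets), 14 of them higher and 2 lower, while over all probe sets 1592 were higher and 1802 lower. The split depended on the scaling and on which array was left out, of which 1 case is given. In the filtered fit 10 factors were higher and 0 lower as deposited (1189 and 1300 over all probe sets), and 12 and 0 with cyclic loess (1606 and 873). With arrays centred on their medians 7 were higher and 3 lower (788 and 1978), and without the MT-1 array with both agents 4 and 3 (862 and 657). In the fit without that filter, 7 factors had such an unadjusted p for OR21 (5.98%, against 8.0% of all). All 7 were higher, while over all probe sets 753 were higher and 962 lower. For EPZ-6438 4 factors did without the filter (3.42%, against 2.44%).

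Genes that write or remove the marks concerned were measured on the same arrays. Of 11 measured PRC2 subunits and H3K27 demethylases, 1 was higher by 1 or more with both agents in MT-1 and 0 lower, and 0 differed in MT-2 with any treatment. EZH2, the target of EPZ-6438, had 13.49 with both agents, 13.42 with EPZ-6438, 13.51 with OR21 and 13.18 untreated in MT-1, and 12.06, 12.35, 12.25 and 12.36 in MT-2. The 1 higher gene was EZH1, the second methyltransferase of the complex (1.23). Of 9 measured genes of the DNA methylation machinery, TET2, which oxidises methylcytosine, was higher with both agents in MT-1 (at least 1.20) and UHRF1, which guides DNMT1 to replicated DNA, was lower with both agents in MT-2 (-1.55). DNMT1, the maintenance methyltransferase, differed with both agents by -0.22 (MT-1) and -0.86 (MT-2).

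Other lineage regulators, outside the families above, were read in the same way. Over all transcript probe sets, as given above, 3.83% were higher and 4.82% lower with both agents in MT-1, and 1.49% and 0.76% in MT-2. Of 36 measured lineage regulators, 3 were higher with both agents in MT-1, namely ZIC1 (at least 1.36), a neural zinc finger factor, HAND1 (at least 1.35), a factor of heart and trophoblast, and RUNX3 (1.11), which directs cytotoxic T cell fate. In MT-2 GATA4, a cardiac and endodermal factor, was higher with both agents (1.30), with 13.11, against 11.82 untreated, and RUNX2, the bone factor, was lower with OR21 (-1.54). Among 11 measured genes known as targets of FOXO factors in T cells, 4 were higher with both agents in MT-1 and 0 lower, and in MT-2 2 were higher and 1 lower. KLF2, which sustains T cell trafficking, was higher by 3.12 in MT-1 and BCL6, the repressor that directs follicular helper cells, by 2.87 (MT-1) and 1.29 (MT-2). The other 2 in MT-1 were TXNIP, an inhibitor of thioredoxin (at least 1.70), and S1PR1, the receptor for exit from lymph nodes (1.57). In MT-2 the stress gene SESN1 was higher (1.58) and the death gene BCL2L11 lower (-1.11). With single agents in MT-1, KLF2 was higher with OR21 (1.45) and with EPZ-6438 (1.30), and S1PR1 with OR21 (1.06). Of 10 measured targets or partners of TBX21, only 4 were above background in untreated MT-2, so the others could not be counted as lower. Of these 4, STAT4 stood at 8.31 untreated, too near background to be counted as lower by 1. PRF1, RUNX3 and CCL3 could be counted, and 0 of them were lower by 1 or more in MT-2 with any treatment. TBX21 was lower there with both agents. The chemokine genes CCL3 (1.56) and CCL5 (at least 1.34) were higher there. In MT-1, where TBX21 was below background, IL12RB2 (1.92), RUNX3 (1.11) and CCL3 (at least 3.45) were higher with both agents.

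The T cell label of the lines rested on few of the markers measured. Of 9, CD5 was above background on all 8 arrays, CD4 only in MT-2 (12.23 untreated), PTPRC (CD45) only in MT-1 (10.62 untreated), and CD7 near the background. CD5 was higher with both agents in MT-2 (1.58). CD2, CD3D, CD3E, CD3G and LCK were below background on every array, while the activation marker IL2RA lay between 15.10 and 16.96. CCR4, listed with IL2RA as a marker of leukaemic and activated T cells, was above background on all 8 arrays. In MT-1 CCR4 had 11.17 with both agents, 12.72 with EPZ-6438, 11.87 with OR21 and 12.77 untreated. Its difference with both agents was -1.60 in MT-1 and 0.16 in MT-2. Markers of another tissue moved with the higher factors in MT-1. Of 4 epithelial markers, 3 were above background with both agents, against 1 on each of the other MT-1 arrays. The keratin KRT8 had 12.91 with both agents, 7.93 with EPZ-6438, 10.02 with OR21 and 7.77 untreated. KRT18 had 9.10 and EPCAM 8.66 with both agents, and both were below background on the other MT-1 arrays, while CDH1 was below it on all arrays. Their part in the result was not tested. B cell, myeloid, NK cell, erythroid, neural and fibroblast or endothelial markers had 0 members higher or lower by 1 or more in any treatment against untreated cells. Between the lines the neural marker SNAP25 differed widely, with 15.49 to 16.14 in MT-2 and 5.84 to 7.71 in MT-1.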

How the data were processed

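The deposited table holds log2 signals of 8 one-colour arrays, which the authors made with RMA, per the submitters' processing notes. The RMA version was not given in the sources used here. Base 2 was assumed because RMA gives it. Values ran from 2.14 to 18.91, and those over 16 exceed what a scanner of 16 bits records, so it is not known whether they were rescaled. Of 24351 entries, 2903 control probe sets were left out. Gene symbols came from the platform annotation, and all 117 Entrez identifiers were found in RefSeq. Background was the 95th percentile of 612 negative-control probe sets per array. A difference was counted from 1 log2 unit, with levels under background replaced by the background of the array. limma 3.58.1 (R 4.3.3, lmFit and eBayes without trend) fitted line and treatment to the 12942 probe sets whose highest value reached the transcript median, 6.573, with Benjamini-Hochberg adjustment over all of them. Alternatives were other background percentiles, no background, a threshold of 0.5, array centring, cyclic loess, other filters, eBayes with trend, no term for line and leaving out each array. The fit was tested on simulated data. Precision is limited by having 8 arrays. Factors past 1 unit, the 12 with the largest difference between untreated lines and the 10 with the highest mean were named, and the line-specific and neighbouring genes were added after their values were seen. The members and gene lists were chosen with earlier results of these data known.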

Additional observations from a re-analysis of the deposited data

Results flagged for a closer look

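SOX4 had differences of unlike sign in the lines with both agents. It was higher by 2.15 in MT-1 and differed by -0.18 in MT-2, each against the untreated array of the line. The MT-2 value is far under 1 log2 unit. With 1 array per condition and different doses, this difference between the lines was not tested.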

How the results depend on the processing

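With background at the 99th percentile (8.68 to 9.59), 20 factors were above it on at least 1 array. By array this was 12 with both agents, 7 with EPZ-6438, 7 with OR21 and 10 untreated in MT-1, and 8, 12, 12 and 9 in MT-2 in the same order. SOX2 was then no longer counted with OR21 in MT-1, which left 0 higher. In MT-2 no factor was counted as lower with both agents, EPZ-6438 or OR21 (0 each) or as higher with both agents (0). With arrays centred on their medians, 3 factors were higher with both agents in MT-1, 0 with OR21 in MT-1 and 0 with both agents in MT-2, and 1 had an excess in MT-2. The values that missed 1 were 0.85 for SOX2 with OR21 and 0.89 for DLX1 and DLX2 with both agents in MT-1, and 0.98 for FOXO1 in MT-2. Cyclic loess gave 2 higher with OR21 and 1 lower with both agents in MT-2. Without a background, so that signals near the noise count, 20 factors were higher with both agents, 1 with EPZ-6438 and 6 with OR21 in MT-1. The same setting gave 4 higher with both agents, 3 higher with OR21 and 3 lower with OR21 in MT-2. It gave 22 higher and 12 lower in untreated MT-2 against untreated MT-1, an excess of 1 or more for 9 and of -1 or lower for 5 in MT-1, and for 4 and 1 in MT-2. At a threshold of 0.5, MT-1 had 11 higher and 2 lower with both agents, 3 higher with EPZ-6438, and 4 higher and 1 lower with OR21. MT-2 had 9 higher and 5 lower with both agents, 2 and 2 with EPZ-6438, and 5 and 4 with OR21, and 10 were lower in untreated MT-2 against untreated MT-1. limma called 62 factors between the lines without the filter on low values, and 35 to 38 when an array was left out. For both agents against untreated cells, leaving out an array gave 0 to 7 calls. The 7 came without the MT-2 array with both agents and were FOXP1, LHX2, LHX8, PAX6, SOX2, SOX4 and TBX20, while 740 of 12942 probe sets were called overall. That fit rests on the single MT-1 array with both agents, assumed to vary like the rest. The term for cell line in the fit pairs each treated array with the untreated array of its line, and the labels give no other pairing. With no replicate block, that is without this term, limma called 0 factors for each treatment. Single genes were recomputed only where their difference from an untreated array was 1 or more, and none of these changed sign. Smaller differences and the excess values of single genes were not checked for sign in this way. The order of the numbers above background in MT-1 turned at the 99th percentile for each single agent against untreated cells. The causes of these changes were not tested, apart from the fewer or more probe sets that a setting counts by construction.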
